A study of Homo sapiens with 6 samples.

Results

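The 10 genes described here are long non-coding hosts of small nucleolar RNAs (snoRNAs): GAS5, SNHG1, SNHG5, SNHG6, SNHG7, SNHG8, SNHG12, SNHG15, SNHG16 and ZFAS1. They were chosen by symbol and by no cut on their values, though earlier results of these data were known. All 10 were found among the 27968 genes of the deposited tables. Their level, the make-up of their transcripts and the snoRNAs in their introns were compared between A549 and H23, a pair of established human lung adenocarcinoma cell lines. The study, by its title, asks how these lines differ in their transcriptomes. Neither line was treated. H23 was grown in the medium that the labels write as RPM1640 and A549 in DMEM, both with 10% FBS, so line and medium cannot be told apart. RNA came from 3 independent cultures of each line near 80% confluence, and total RNA libraries were made with a stranded kit after removal of ribosomal RNA.

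A snoRNA host is transcribed and spliced like an mRNA, and the snoRNAs are trimmed out of its introns. Box C/D snoRNAs guide methylation of ribose and box H/ACA snoRNAs guide the change of uridine to pseudouridine, mostly in ribosomal RNA. Many hosts begin with a pyrimidine tract, as mRNAs of ribosomal proteins do. Several spliced host RNAs are engaged by ribosomes and removed by nonsense-mediated decay, so the level of a spliced host RNA and that of its snoRNA need not move together.

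Estimated read counts summed to 37295989, 29395795 and 42421642 in H23 replicates 1 to 3 and to 24441832, 25348083 and 23399562 in A549 replicates 1 to 3. H23 replicate 1 stood apart from the other H23 libraries, with a chi-square per gene of 105 and 134 against them, where replicates 2 and 3 gave 5.48 and the A549 libraries gave 3.72 to 3.91. All 10 hosts had their highest H23 level in that library, as 43.8% of the tested genes did. Genes under 200 bases took 0.113 to 0.180% of the counts in A549 and 0.000621 to 0.00127% in H23. In TPM, a unit that corrects for length and sums to a fixed total in each library, they took 15.7 to 19.7% in A549 and 0.112 to 0.242% in H23. Levels of one gene are given as CPM, counts scaled to library size with TMM factors. All 5 epithelial markers were detected in both lines, and 4 of them differed: KRT19 at a log2 fold of 3.72 and KRT8 at 0.55 were higher in A549, CDH1 at -1.43 and EPCAM at -0.91 higher in H23, and KRT18 did not pass the test. Of 4 lung lineage markers, NKX2-1 had 2.95 ± 0.440 CPM in H23 and no count in A549. NAPSA, at 1.07 ± 0.288 CPM in H23 and 0.839 ± 0.172 in A549, did not pass the test. SFTPB, with 3 counts over the H23 libraries and 13 over the A549 libraries, and SFTPC, with 0 and 2, were too low to be tested. Each group is a single cell line, and in bulk RNA a lower level per cell and fewer cells with the RNA cannot be told apart.

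Sequence around the start was taken for the hosts whose level differed between the lines, to show the start sites and pyrimidine tracts on either side of the comparison. RefSeq promoters on GRCh38.p14 were used for 8 of the 10 hosts. None was used for SNHG6 or SNHG15, which also differed. Each line below gives 40 bases before and 40 after the annotated start, with the longest run of C and T between 10 bases before and 40 after the start in capitals. SNHG12 and SNHG1 were lower in A549, and SNHG16, SNHG8 and SNHG7 were higher.
SNHG12, chr1:28581834-28581913, minus strand: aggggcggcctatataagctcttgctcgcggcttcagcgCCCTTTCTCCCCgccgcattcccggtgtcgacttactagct
SNHG1, chr11:62855846-62855925, minus strand: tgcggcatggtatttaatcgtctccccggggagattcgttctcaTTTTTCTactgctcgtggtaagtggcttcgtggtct
SNHG16, chr17:76557724-76557803, plus strand: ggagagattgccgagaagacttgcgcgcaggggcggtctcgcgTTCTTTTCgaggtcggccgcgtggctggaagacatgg
SNHG8, chr4:118278722-118278801, plus strand: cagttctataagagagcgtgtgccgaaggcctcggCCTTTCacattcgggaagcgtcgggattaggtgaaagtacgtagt
SNHG7, chr9:136728145-136728224, minus strand: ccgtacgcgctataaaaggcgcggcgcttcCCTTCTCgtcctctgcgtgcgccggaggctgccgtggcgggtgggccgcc

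Within the searched window the longest run was 12 bases in SNHG12, 7 in SNHG1, 8 in SNHG16, 6 in SNHG8 and 7 in SNHG7. It spanned 6 to 12 bases over the 8 hosts. The run of SNHG7 is cut by the edge of the window, and in the sequence shown C and T continue before it. It began at position -10 from the annotated start and ended before that start. The runs of GAS5 and ZFAS1 began at position 32. The median over 35116 RefSeq promoters was 5, and 3.5% held a run at least as long as that of SNHG12. For the other hosts shown this share was larger, at 18.0% for SNHG16, 27.4% for SNHG1 and SNHG7 and 41.6% for SNHG8. The letters TATAAAA or TATATAA, searched on the gene's strand in the 50 bases before the start, were present in 4 of the 8, SNHG5, SNHG7, SNHG12 and ZFAS1, and in 1.58% of all promoters. The palindrome CACGTG was present in the 300 bases of SNHG7 alone among the 8, and in 7.3% of all promoters. The motifs and windows were chosen after the sequences had been read, so these shares are a description. Hosts with the TATA letters lay on both sides: SNHG12 was lower in A549 and SNHG7 was higher.

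At the level of whole genes, 7 of the 10 hosts differed between the lines by the quasi-likelihood test of edgeR (Benjamini-Hochberg adjusted p under 0.05), beside 77.2% of all 15426 tested genes. SNHG16, SNHG8, SNHG7 and SNHG6 were higher in A549, beside 37.6% of all tested genes. SNHG15, SNHG12 and SNHG1 were higher in H23, beside 39.6% of all tested genes. The same 7 had library values that did not overlap between the lines, as 82.1% of tested genes did. The share of hosts that differed was thus close to that of genes at large, and it was 76.3% among genes with a mean TPM of at least 20. The median log2 fold, A549 over H23, was -0.16 over the hosts and -0.03 over all tested genes, with host folds from -1.43 to 1.26. Without H23 replicate 1 the hosts' median was 0.01. The plot of CPM by library shows the spread behind each fold.

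**Figure D1:**
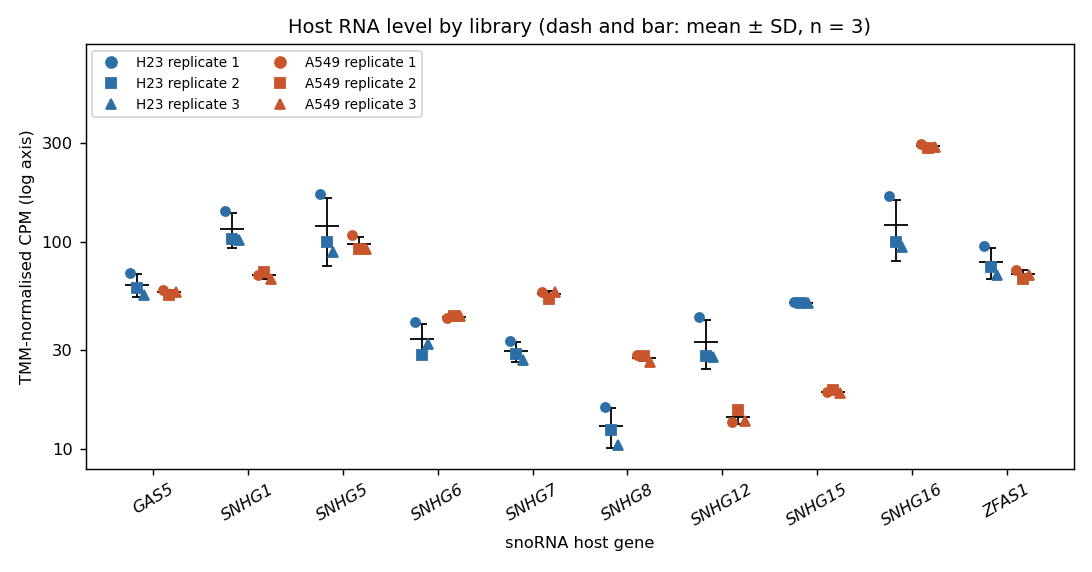
TMM-normalised CPM (log axis) of each snoRNA host in the 6 libraries, H23 in blue and A549 in orange, with a marker shape per replicate and the mean ± SD of each line (n = 3) in black. SNHG16 in A549 lies at 282 to 296 CPM, above its H23 values, and H23 replicate 1 (blue circle) is the highest H23 library of every host.

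Of the hosts lower in A549, SNHG15, which carries the H/ACA snoRNA SNORA9, had the largest fold. It stood at 51.1, 50.7 and 50.8 CPM in H23 replicates 1, 2 and 3 and at 18.8, 19.3 and 18.6 CPM in A549. The values were nearly level within each line and far apart between them, and H23 replicate 1 was no exception for this gene. SNHG15 was 2.69-fold higher in H23, a log2 fold of -1.43 ± 0.08 (SE), with an edgeR adjusted p of 5.45e-06. SNHG12, which carries 3 H/ACA snoRNAs and 1 box C/D snoRNA, stood at 43.1, 28.0 and 27.8 CPM in H23 and at 13.5, 15.5 and 13.7 CPM in A549. The lowest H23 library lay well above the highest A549 library. Its log2 fold was -1.21 ± 0.19 (edgeR adjusted p = 0.000988), and -0.97 without H23 replicate 1.

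SNHG1 carries 8 box C/D snoRNAs, SNORD22 and SNORD25 to SNORD31. It stood at 140.6, 102.9 and 102.0 CPM in H23 and at 69.4, 71.3 and 66.2 CPM in A549. All H23 libraries were above all A549 libraries, and the highest was H23 replicate 1. The log2 fold was -0.74 ± 0.14 (edgeR adjusted p = 0.00234), and -0.57 without that library.

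Of the hosts higher in A549, SNHG16, host of the box C/D snoRNAs SNORD1A, SNORD1B and SNORD1C, had the largest fold. It stood at 166.0, 99.7 and 94.7 CPM in H23 and at 295.9, 282.0 and 286.8 CPM in A549. The A549 libraries were close to each other, while H23 replicate 1 lay well above the other H23 libraries. SNHG16 was 2.40-fold higher in A549, a log2 fold of 1.26 ± 0.22 (edgeR adjusted p = 0.00143), and 1.57 without H23 replicate 1. SNHG7, host of the H/ACA snoRNAs SNORA17A and SNORA17B, stood at 33.3, 28.6 and 26.9 CPM in H23 and at 57.0, 53.2 and 57.0 CPM in A549. The lines were well separated for this gene, and its log2 fold was 0.91 ± 0.11 (edgeR adjusted p = 0.000199).

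SNHG8, host of the H/ACA snoRNA SNORA24, stood at 16.0, 12.3 and 10.4 CPM in H23 and at 28.4, 28.1 and 26.3 CPM in A549. Every A549 library was above every H23 library. The log2 fold was 1.10 ± 0.16 (edgeR adjusted p = 0.000712). On log2(TPM + 1) it was 0.41 with a limma adjusted p of 0.0928, and after removal of the trends of each library with GC content and length it was -1.23, so the direction for SNHG8 depends on the setting. SNHG6, host of SNORD87, stood at 40.9, 28.5 and 31.9 CPM in H23 and at 42.7, 43.8 and 43.8 CPM in A549. The highest H23 library nearly reached the lowest A549 library. The log2 fold of 0.36 ± 0.14 (edgeR adjusted p = 0.0486) lost its call in 8 of 17 alternatives, among them without H23 replicate 2, H23 replicate 3 or any single A549 replicate (adjusted p 0.0917 to 0.135), and it turned negative in 4 others, the 3 scaled to TPM without centring among them.

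The other three hosts, GAS5, SNHG5 and ZFAS1, did not pass the test, and their library values overlapped between the lines. GAS5, a host of 10 box C/D snoRNAs whose spliced RNA is known as a decoy of the glucocorticoid receptor, stood at 71.0, 59.8 and 55.5 CPM in H23 and at 58.2, 55.2 and 57.4 CPM in A549. All A549 values lay in the lower part of the H23 range or just under it. Its log2 fold was -0.13 ± 0.11, an interval of -0.34 to 0.09 at 2 SE (edgeR adjusted p = 0.323), and -0.02 without H23 replicate 1. SNHG5, host of SNORD50A and SNORD50B, stood at 169.3, 99.9 and 89.4 CPM in H23 and at 107.3, 92.3 and 92.0 CPM in A549. H23 replicate 1 stood alone above the 5 other values. Its log2 fold was -0.30 ± 0.24, an interval of -0.78 to 0.18 (edgeR adjusted p = 0.290), and 0.04 without H23 replicate 1.

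ZFAS1, host of SNORD12, SNORD12B and SNORD12C, stood at 95.1, 75.4 and 68.9 CPM in H23 and at 72.9, 66.4 and 69.2 CPM in A549. The lowest H23 library fell inside the A549 range. Its log2 fold was -0.20 ± 0.13, an interval of -0.46 to 0.06 (edgeR adjusted p = 0.203). It was -0.06 without H23 replicate 1 and 0.22 once the trends with GC content and length were removed. GAS5 and SNHG5 passed the test, lower in A549, once the trends with GC content and length were removed, at -0.89 and -1.87 (edgeR adjusted p = 5.53e-05 and 2.69e-06). A missed threshold does not show equal levels, and for SNHG5 the spread of the H23 libraries, a coefficient of variation of 36.3%, was the largest among the hosts.

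The scale moved the split of the hosts. On log2(TPM + 1) the median fold of all tested genes was -0.41, and 2 hosts were higher in A549, beside 25.1% of tested genes, and 6 higher in H23, beside 54% of tested genes. With the trends of GC content and length removed, 2 were higher in A549 (38.7% of tested genes) and 7 in H23 (41.9%). On the TPM scale, relative to that median the hosts' own median was -0.24. The short genes took a far larger share of TPM in A549, which lowers every other TPM value there by construction. How much of the median TPM fold of -0.41 comes from this was not tested. GAS5, SNHG5 and ZFAS1 passed the test on that scale. With the TPM folds centred on the median fold, GAS5 still passed at -0.23 (limma adjusted p = 0.0388). SNHG5 and ZFAS1 then did not (limma adjusted p = 0.157 and 0.0779). The 5 hosts, SNHG1, SNHG7, SNHG12, SNHG15 and SNHG16, kept their direction and their call in all 17 alternatives run.

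**Figure D2:**
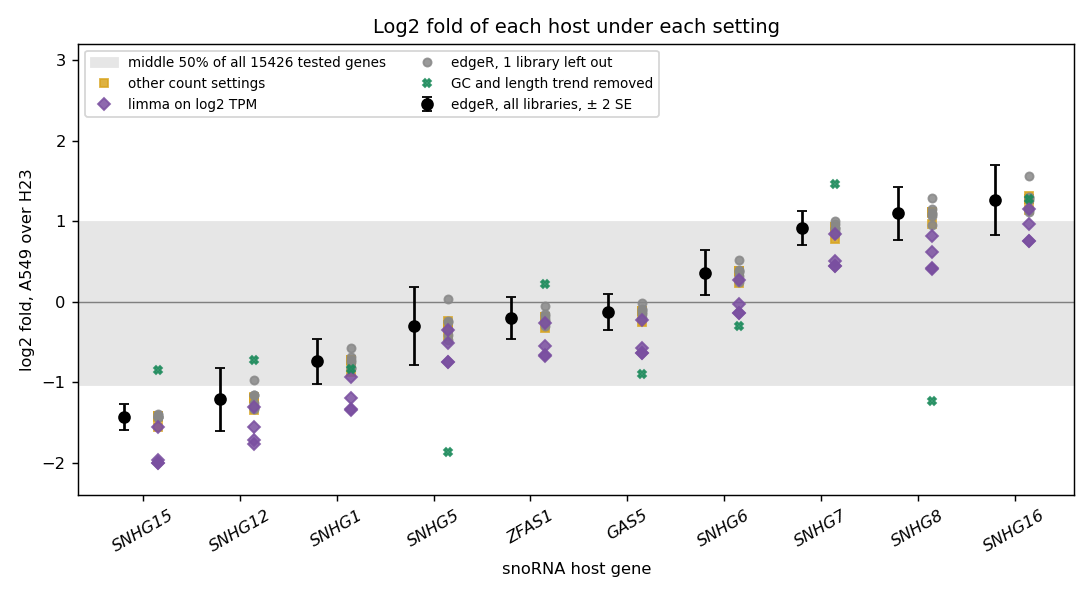
Log2 fold of each host, A549 over H23, from edgeR with all libraries (black, bars 2 SE to either side) and from the 17 alternatives (coloured), over a grey band that holds the middle 50% of all tested genes. SNHG15, SNHG12 and SNHG1 stay below 0 and SNHG7 and SNHG16 stay above 0 in every setting drawn, while SNHG8 and SNHG6, and the uncalled SNHG5 and ZFAS1, cross 0.

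Levels of different hosts were compared per length, in TPM. SNHG5 had the highest TPM in both lines, at 549.7 ± 171 in H23 and 317 ± 21.8 in A549 (SD, n = 3), and its values did not overlap those of GAS5, the next host, at 215 ± 16.9 and 138 ± 5.83. SNHG5 has a single transcript in the tables, of 507 bases. In H23 the order went on with ZFAS1 at 197, SNHG1 at 182, SNHG15 at 118, SNHG6 at 102, SNHG16 at 80.1, SNHG8 at 79.1, SNHG12 at 67.0 and SNHG7 at 47.8 TPM. GAS5, ZFAS1 and SNHG1 overlapped with their neighbours in that order, as did SNHG15, SNHG6, SNHG16, SNHG8 and SNHG12 among themselves. Within each H23 library, though, GAS5 was above ZFAS1, ZFAS1 above SNHG1 and SNHG6 above SNHG16. SNHG15 over SNHG6, SNHG16 over SNHG8 and SNHG8 over SNHG12 held in 2 of the 3 H23 libraries. In A549 it went on with SNHG16 at 132, ZFAS1 at 123, SNHG8 at 103, SNHG6 at 92.0, SNHG1 at 70.9, SNHG7 at 65.1, SNHG15 at 29.4 and SNHG12 at 19.5 TPM. There the overlapping neighbours were GAS5 with SNHG16, SNHG16 with ZFAS1, and SNHG1 with SNHG7, though each of these pairs kept its order within every A549 library. All 10 lay in the upper part of the expressed genes, between the 71.4th percentile of mean TPM for SNHG12 in A549 and the 98.4th for SNHG5 in H23.

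The make-up of the host pool, each host's share of the summed TPM of the 10, does not depend on the total of the other genes. SNHG16 went from 4.85 ± 0.377% of the pool in H23 to 12.1 ± 0.256% in A549, from 7th to 3rd in the order. SNHG8 went from 4.78 ± 0.581% to 9.44 ± 0.893%, and SNHG7 from 2.96 ± 0.307% to 5.97 ± 0.345%. SNHG1 went from 11.2 ± 0.209% to 6.51 ± 0.290%, SNHG15 from 7.40 ± 1.61% to 2.70 ± 0.111%, and SNHG12 from 4.08 ± 0.131% to 1.79 ± 0.160%. None of these shares overlapped between the lines, nor did that of SNHG6, at 6.29 ± 0.691% and 8.45 ± 0.405%. The shares of SNHG5, GAS5 and ZFAS1 overlapped, with SNHG5 at 33.1 ± 3.63% in H23 and 29.1 ± 1.43% in A549. The smallest two-sided p of an exact permutation test with 3 libraries a line is 0.1, and no test is given for the shares. The 10 hosts together took 0.0560 to 0.0839% of the counts in H23 and 0.0719 to 0.0752% in A549. The ranges overlapped through H23 replicate 1 alone, since H23 replicates 2 and 3, at 0.0597 and 0.0560%, lay below every A549 library. In summed TPM the hosts went the other way, at 1410 to 2001 in the H23 libraries and 1057 to 1111 in the A549 libraries. The direction of the pool total thus depends on the unit.

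**Figure D3:**
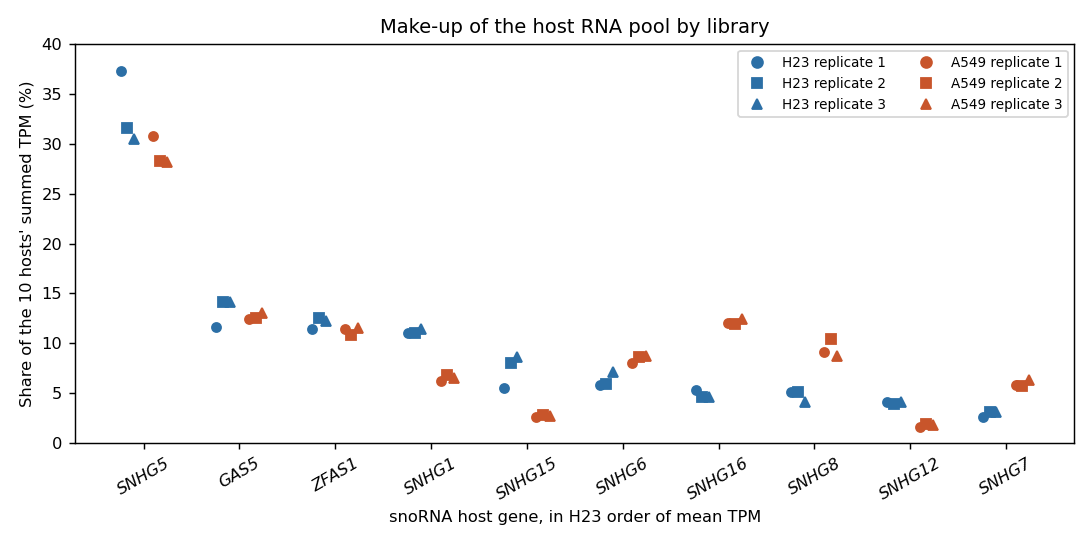
Share of each host in the summed TPM of the 10 hosts, in percent, for each library (H23 blue, A549 orange), ordered by mean TPM in H23. SNHG5 takes 28.2 to 37.3% in every library, and SNHG16, SNHG8 and SNHG7 take larger shares in all A549 libraries than in any H23 library.

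Which transcripts made up each host was read from the deposited shares of its RefSeq transcripts, 60 in all for the 10 hosts, of which 3 were at 0 in every library. Usage, the balance among a gene's transcripts, was tested with edgeR's diffSpliceDGE in 9 hosts, since SNHG5 has 1 transcript. It differed between the lines for SNHG8 and SNHG7, 2 of 9, beside 25.8% of 7539 tested genes. In SNHG8 the transcript NR_003584 of 619 bases took 16.2 to 32.7% in the H23 libraries (24.6 ± 8.26%, SD, n = 3) and 44.6, 39.9 and 49.6% in A549. NR_034010 of 468 bases took 36.3, 34.6 and 38.4% in H23 and 20.7, 19.3 and 18.6% in A549. The first form was larger, and the second smaller, in every A549 library than in any H23 library. In the test of each transcript alone, neither form passed (diffSpliceDGE adjusted p = 0.869 and 0.795). The shortest form, NR_034011 of 274 bases, took 38.9 ± 9.38% in H23 and 35.8 ± 4.57% in A549 (SD, n = 3). The edgeR adjusted p for the usage of SNHG8 was 0.00876, and 0.0558 to 0.0830 when A549 replicate 1, 2 or 3 was left out. The abundance-weighted length of SNHG8 was 430 ± 30.6 bases in H23 and 466 ± 16.1 in A549.

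In SNHG7 the leading transcript NR_024542 of 968 bases took 83.6, 79.1 and 80.3% in H23 and 78.6, 77.2 and 78.5% in A549. The lines did not overlap, though the gap was small. A minor form, NR_024543 of 853 bases, named here after its values were seen, took 3.93, 5.97 and 3.24% in H23 and 9.08 to 11.1% in A549 (10.4 ± 1.14%, SD, n = 3). NR_024543 alone did not pass the test per transcript (diffSpliceDGE adjusted p = 0.872). The edgeR adjusted p for the usage of SNHG7 was 0.0334. It missed the threshold without any single A549 replicate (up to 0.176) and without H23 replicate 3 (0.113). In SNHG12 the transcript NR_024127 of 758 bases took 35.5, 35.5 and 37.5% in H23 and 13.2, 17.5 and 15.7% in A549, while the leading NR_146384 of 1082 bases stayed near 41.2 ± 3.74% and 42.3 ± 3.45%. Although the share of NR_024127 was well separated, it did not pass the test per transcript (diffSpliceDGE adjusted p = 0.698). The usage of SNHG12 as a gene did not pass the test (edgeR adjusted p = 0.272), and it did when minor transcripts were left out (0.0463). In GAS5 the leading NR_002578 of 638 bases took 54.3 ± 6.13% in H23 and 49.4 ± 1.48% in A549, and NR_152523 of 599 bases took 26.8 ± 4.81% and 39.2 ± 1.55%. GAS5 did not pass the usage test with all libraries (edgeR adjusted p = 0.656) and did without H23 replicate 1 (0.0197).

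**Figure D4:**
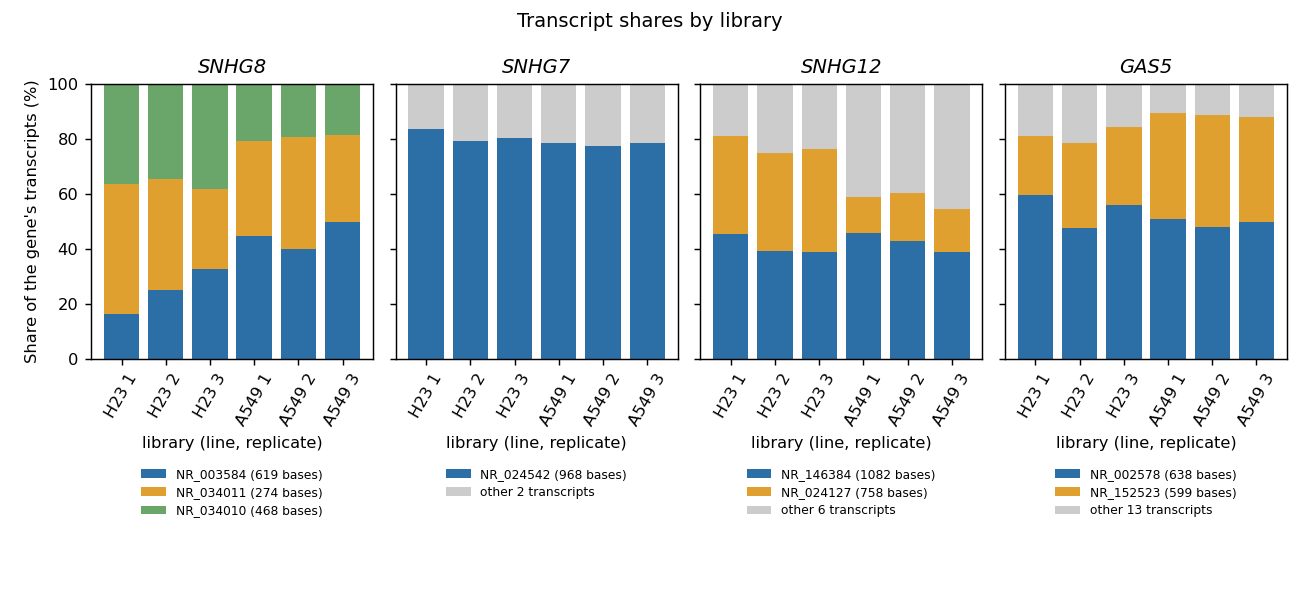
Share of each gene's transcripts, in percent, for SNHG8, SNHG7, SNHG12 and GAS5 in the 6 libraries, with transcripts of at least 20% in either line in colour and the remaining ones in grey. In SNHG8 the blue form (619 bases) grows and the green form (468 bases) shrinks from H23 to A549, and in SNHG12 the orange form (758 bases) is smaller in all A549 libraries.

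By mean share, SNHG8 was led by NR_034011 in H23 and by NR_003584 in A549, though not in every library. All hosts other than SNHG8 kept their leading transcript between the lines by mean share. The remaining tested hosts, like SNHG12 and GAS5, did not pass the usage test with all libraries. SNHG15 missed it at an edgeR adjusted p of 0.126, and passed it without A549 replicate 1 (0.0210) and with limma's diffSplice (0.00878). SNHG1 was led by NR_003098 of 1125 bases, at 55.9 ± 8.91% in H23 and 49.0 ± 1.80% in A549, and NR_152575 of 1523 bases took 14.8 ± 6.42% and 26.1 ± 6.17%. SNHG6 was led by NR_002599 at 75.2 ± 1.03% in H23, and its mean share in A549 differed by -0.15 percentage points. SNHG15 was led by NR_003697 at 77.9 ± 2.15% and 76.6 ± 3.30%, and ZFAS1 by NR_003604 at 42.8 ± 4.57% and 43.1 ± 1.11%. SNHG16 held a pair of forms of like length, NR_038109 of 2534 bases at 50.9 ± 7.49% and 59.9 ± 1.56% and NR_038111 of 2435 bases at 46.8 ± 7.37% and 36.3 ± 1.10%. Its edgeR adjusted p for usage was 0.736.

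The tables list 35 snoRNAs of these hosts as genes of their own, 28 of box C/D type and 7 of box H/ACA type. Of the box C/D snoRNAs, with a median length of 75 bases, 23 had 0 counts in all 6 libraries. Of all 342 genes named SNORD, the box C/D symbol, 279 did. The 28 held 25 counts over the H23 libraries and 34 over the A549 libraries, where all SNORD genes held 134 and 18043. The 7 H/ACA snoRNAs, with a median length of 133 bases, held 5 counts in H23 and 1273 in A549, and 2 of them had a count in H23 where all 7 did in A549. The mean fragment was 168 to 174 bases in H23 and 178 to 189 bases in A549, by the deposited lengths and effective lengths, longer than any of these snoRNAs. All snoRNA genes of the tables together moved as the H/ACA set did. They held 105 to 131 counts per H23 library and 17499 to 20180 per A549 library. The part of this library-wide gap in the values below was not tested. The sequences of 4 H/ACA snoRNAs that differed in counts, and of SNORD22, the longest of the box C/D set, are given from GENCODE 29 on GRCh38. Capitals mark the ACA near the end of an H/ACA snoRNA and the CTGA near the end of SNORD22.
SNORA24 of SNHG8, chr4:118279190-118279320, plus strand: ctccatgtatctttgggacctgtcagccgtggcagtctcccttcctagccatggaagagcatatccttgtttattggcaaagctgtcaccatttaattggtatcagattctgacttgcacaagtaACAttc
SNORA17A of SNHG7, chr9:136726747-136726879, minus strand: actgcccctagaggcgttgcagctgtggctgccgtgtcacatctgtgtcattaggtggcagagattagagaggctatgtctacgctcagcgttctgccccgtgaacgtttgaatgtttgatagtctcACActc
SNORA9 of SNHG15, chr7:44985378-44985510, minus strand: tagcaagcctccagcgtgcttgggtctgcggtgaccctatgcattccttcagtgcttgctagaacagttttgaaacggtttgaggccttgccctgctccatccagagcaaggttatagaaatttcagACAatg
SNORA61 of SNHG12, chr1:28579764-28579893, minus strand: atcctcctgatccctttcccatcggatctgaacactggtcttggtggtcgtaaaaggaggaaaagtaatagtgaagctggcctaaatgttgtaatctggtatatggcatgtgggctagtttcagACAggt
SNORD22 of SNHG1, chr11:62852910-62853035, minus strand: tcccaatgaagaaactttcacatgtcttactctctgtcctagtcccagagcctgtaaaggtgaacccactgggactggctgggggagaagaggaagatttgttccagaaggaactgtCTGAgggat

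SNORA24, in SNHG8, had 1, 2 and 1 counts in H23 and 33, 31 and 33 in A549. SNORA17B, in SNHG7, had 0 counts in every H23 library and 388, 232 and 320 in A549, at least 478-fold higher in A549 against a floor of 3 counts over the H23 libraries. Its partner SNORA17A, in the same host, had 0 counts in H23 and 16, 7 and 12 in A549, at least 17.8-fold higher. The division of reads between these related copies carries an error that the counts do not show. For these hosts, SNHG7 and SNHG8, the spliced RNA and the snoRNA counts were both higher in A549. All 7 H/ACA snoRNAs had more counts in A549, as snoRNA genes at large did. Whether a host and its snoRNA went the same way was therefore set by the direction of the host alone.

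For SNHG12 and SNHG15, both lower in A549, the spliced RNA and the snoRNA counts by the same token went opposite ways. SNORA9, in SNHG15, had 0 counts in H23 and 47, 13 and 25 in A549, at least 43.2-fold higher, while SNHG15 itself was lower in A549. In SNHG12, SNORA16A had 0 counts in H23 and 25, 26 and 28 in A549, at least 40.2-fold higher. SNORA61 had 0 in H23 and 2, 12 and 6 in A549, at least 10.2-fold higher, and SNORA44 had 1 count over the H23 libraries and 17 over the A549 libraries. SNORA17B, SNORA24, SNORA16A and SNORA9 passed the filter on low counts only through their A549 counts, so no test is given for them. SNORD22, in SNHG1, had 10, 2 and 11 counts in H23 and 12, 3 and 4 in A549, and its values overlapped.

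**Figure D5:**
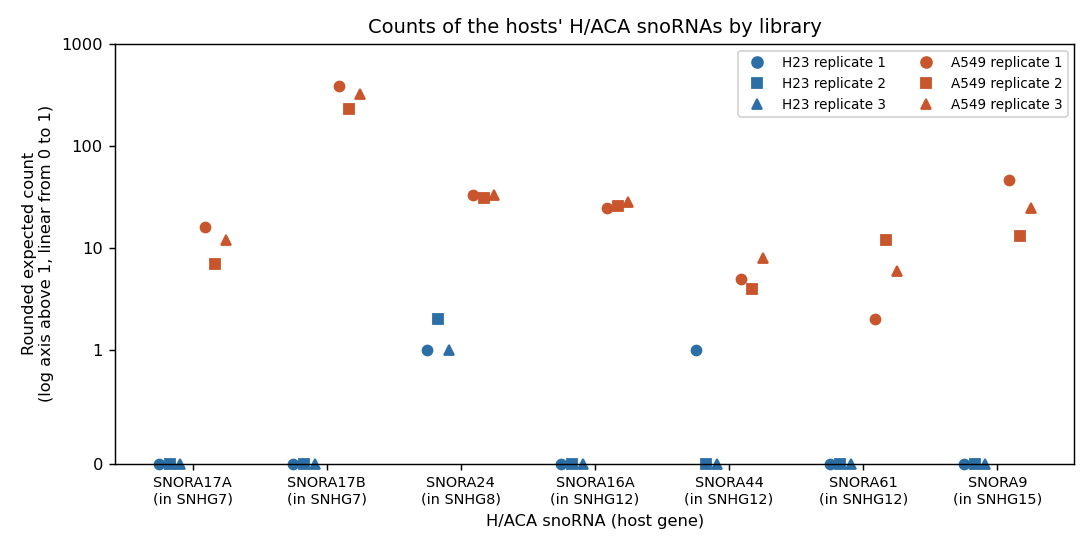
Rounded expected counts of the 7 H/ACA snoRNAs in each library (axis logarithmic above 1 and linear from 0 to 1), with the host gene in brackets, H23 in blue and A549 in orange. No H23 library holds more than 2 counts of any of them, and SNORA17B reaches 232 to 388 in A549.

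The genes next to the hosts, taken from the RefSeq order on GRCh38.p14, were read to see whether a host and its neighbour moved together. Of 20 neighbours 14 had a row in the tables and 10 were tested, of which 8 differed between the lines, beside 77.2% of all tested genes. In 5 pairs both host and neighbour differed, 1 in the same direction and 4 in opposite ones, or 2 and 3 with SNHG8 turned as under the GC content and length setting. SLC3A2, which encodes a heavy chain of amino acid transporters, lies beside SNHG1. It had 133 ± 6.47 CPM in H23 but 951 ± 7.08 CPM in A549 (SD, n = 3), a log2 fold of 2.84 ± 0.08 against -0.74 for SNHG1. WDR74, on the other side of SNHG1, stood at 51.5 ± 3.88 and 56.5 ± 2.04 CPM and did not pass the test. TRNAU1AP, beside SNHG12, fell with it, at 36.6 ± 3.64 and 14.4 ± 0.600 CPM, while RAB42 on the other side went from 0.0402 ± 0.0485 to 2.40 ± 0.245 CPM.

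GAS5, which did not pass the test, had neighbours that were both higher in A549, ZBTB37 at a log2 fold of 2.33 ± 0.22 and the antisense GAS5-AS1 at 3.39 ± 0.29, from 0.141 to 1.55 CPM. ZFAS1 lies antisense to ZNFX1, which fell from 141 ± 35.3 to 68.5 ± 1.45 CPM where ZFAS1 did not pass the test. The strand setting of the counting is not given in the sources used here, so reads of GAS5 and GAS5-AS1, or of ZFAS1 and ZNFX1, may not be fully told apart. PRSS12 beside SNHG8 and ST6GALNAC2 beside SNHG16 were lower in A549, at -0.82 ± 0.20 and -0.85 ± 0.21, where their host neighbours were higher.

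Among 12 tested of 13 other long non-coding hosts, 6 rose in A549 relative to H23 and 5 fell. The shares over all tested genes, for this and the lists that follow, were 37.6% in the A549 direction and 39.6% in the H23 direction, 77.2% in all. MEG8, an imprinted host, went from 0.643 ± 0.349 to 9.62 ± 0.444 CPM, and SNHG10 from 4.01 ± 1.01 to 11.9 ± 0.0525 CPM. DANCR went from 98.5 ± 21.2 CPM in H23 to 25.6 ± 1.84 in A549, SNHG17 from 65.8 ± 0.0497 to 22.2 ± 0.436, and SNHG3 from 76.2 ± 15.5 to 42.7 ± 0.382. SNHG19 was higher in A549 at a log2 fold of 1.83 ± 0.30, and turned to -1.43 once the trends with GC content and length were removed. Of 37 protein-coding hosts 10 were higher in A549 and another 17 in H23. They made up 73% of the list, and the median log2 fold was -0.20, or -0.09 without H23 replicate 1. RPL13A and RPL4 were higher in A549, at 1.54 ± 0.10 and 0.88 ± 0.07, and RPS12 and RPS3 higher in H23, at -1.23 ± 0.18 and -1.11 ± 0.07. Ribosomal protein mRNAs share reads with processed pseudogenes, so these values carry that uncertainty.

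Of the 4 box C/D core proteins SNU13 and FBL, the methyltransferase fibrillarin, were higher in H23, at -1.47 ± 0.10 and -0.60 ± 0.09, and none was higher in A549. FBL was no longer called after removal of the trends with GC content and length. Of the 4 H/ACA core proteins GAR1 and DKC1, the pseudouridine synthase dyskerin, were higher in H23, at -2.11 ± 0.21 and -0.91 ± 0.07, and none was higher in A549. Of 10 assembly factors 3 were higher in each line, 60% in all against 77.2% of all tested genes. NAF1, which loads H/ACA RNAs, and RUVBL1, a helicase of the assembly complex, were higher in H23, at -1.42 ± 0.13 and -1.14 ± 0.09, and PHAX, which carries capped precursors, was higher in A549, at 1.47 ± 0.19. The A549 calls of TGS1 and RUVBL2, at 0.58 ± 0.14 and 0.29 ± 0.07, were lost or turned in some alternatives.

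Of 14 factors of nonsense-mediated decay, the route that removes several host RNAs, 5 were higher in H23 and 2 in A549, 50% in all against 77.2% of all tested genes, with a median log2 fold of -0.34. MAGOH, a subunit of the exon junction complex, went from 81.2 ± 19.1 to 10.6 ± 0.867 CPM, and CASC3 of the same complex had a log2 fold of -1.14 ± 0.08. UPF2 and SMG8 were higher in A549, at 1.06 ± 0.37 and 0.38 ± 0.14, and their calls were lost in 9 and 7 of 17 alternatives, with SMG8 reversed in 3 more. Of 7 regulators of mRNAs that start with a pyrimidine tract, RPS6KB1, EIF4E and RPTOR were higher in A549, at 1.48 ± 0.29, 0.82 ± 0.10 and 0.85 ± 0.22, though RPTOR lost its call in 3 alternatives and EIF4E in 1, and MTOR, at 222 ± 38.4 and 111 ± 3.46 CPM, and CNBP, at -0.39 ± 0.09, were higher in H23. LARP1, which binds such tracts, did not pass the test. These lists, like the hosts, moved in both directions or had members that did not pass, and no relation between them and the hosts was tested.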

How the data were processed

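RNA was sequenced from 3 cultures of H23 and 3 of A549, and the labels give the line and the replicate number of each. The submitters' processing notes name STAR 2.6.0c, RSEM 1.3.0 and hg19. The strand setting and the annotation release are not given in the sources used here. Per the file headers, the expected counts are estimates by RSEM for each gene and transcript, and they are unscaled. The authors' TPM values, also from RSEM, are scaled for length and depth. The deposited FPKM values were not used. The deposited percent column holds the share of a transcript within its gene. The deposited lengths are in bases. Reads shared by similar genes were divided by RSEM's model.

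Expected counts were rounded. Genes were kept by edgeR's filterByExpr (15426 of 27968), scaled with TMM and compared between the lines with edgeR 4.0.16 in R 4.3.3 by the robust quasi-likelihood F test, with Benjamini-Hochberg adjustment over all tested genes and a threshold of 0.05. The common biological coefficient of variation was 0.168. Approximate standard errors were obtained by dividing the size of the log2 fold by the root of F. Transcript usage was tested with diffSpliceDGE on 24779 transcripts of 7539 genes. Where a line had 0 counts, folds were taken against 3 counts over its libraries, and such floors cover counting error only. Alternatives were DESeq2 1.42.0, other scalings and filters, limma 3.58.1 on log2(TPM + 1) and log2(TPM + 0.1), a replicate block, each library left out, and trends with GC content and length removed with mgcv 1.9.3. Only the gene-level and transcript usage fits of edgeR were tested on simulated data. GC content was matched by symbol to the GRCh38 reference for 14885 of the tested genes of at least 200 bases, all 10 hosts among them.

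The hosts, the gene lists and the tests were chosen with earlier results of these data known. Named are all hosts, their transcripts with a mean share of at least 20% in either line, their snoRNAs, their neighbours, and in other lists up to 3 genes per direction with the largest fold among those past the test without overlap. A few genes that this rule would name are not reported here. LARP1, KRT18, NAPSA, SFTPB, SFTPC and NR_024543 are named outside this rule, after their values had been seen. Sequences are RefSeq's on GRCh38.p14 and GENCODE 29's on GRCh38. The deposited tables follow hg19 and hold no coordinates.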

Additional observations from a re-analysis of the deposited data

How the results depend on the processing

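Of 170 host folds over the alternatives, 143 kept their side of the threshold, of which 141 kept their sign and 2, in the uncalled SNHG5 and ZFAS1, did not. Another 10 lost the call, 12 gained it and 5 reversed, and the cause was not tested. On log2(TPM + 1) and on log2(TPM + 0.1) 2 hosts were higher in A549 and 6 in H23. Without H23 replicate 1 on log2(TPM + 1) 6 were higher in H23, and SNHG7, SNHG8 and SNHG16 were higher in A549. In that setting 88.7% of all tested genes passed in either direction. With the trends of GC content and length removed, 2 were higher in A549 and 7 in H23, and the folds of SNHG6, SNHG8, SNHG19 and TGS1 reversed to -0.30, -1.23, -1.43 and -0.091. On log2(TPM + 1), log2(TPM + 0.1) and log2(TPM + 1) without H23 replicate 1, reversed folds were -0.14, -0.14 and -0.033 for SNHG6, -0.26, -0.26 and -0.32 for RUVBL2, -0.14, -0.15 and -0.33 for SMG8, and -0.40, -0.41 and -0.40 for WDR74. In the last of these KRT8 reversed to -0.056. These TPM folds hold the shift of -0.41 in all genes. Usage passed in 1 host without a filter on low counts, beside 18.9% of tested genes. With 1 library left out it passed in 0 to 3 hosts, beside 17.9 to 29.6% of tested genes. With the replicate number as a block, 6 hosts passed at gene level, beside 75.8% of tested genes. Usage with that block passed in 1 host and in 1249 of all genes (16.6%), against 1944 without the block. Same-numbered libraries of the lines correlated at 0.0634, -0.0797 and 0.119 in their deviations from the line means, so the numbers were not taken to pair the samples. The H23 libraries, replicate 1 above all, limit the precision, and the snoRNA counts of H23 are too few for a fold or give only a lower bound.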
